A study of Homo sapiens with 3 samples.

Results

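Chaperones and folding genes of the endoplasmic reticulum (ER) were examined in BTSH cells, a single clone picked from the HER2+ breast cancer line BT474 for its high sensitivity to the anti-HER2 antibody trastuzumab. The genes were chosen by symbol alone. Features entered if their annotated symbol began with the letters of heat shock proteins (HSPA, HSPB, HSPD, HSPE, HSPH, HSP90) or J-domain proteins (DNAJA, DNAJB, DNAJC). The letters of subunits of the chaperonin CCT, BAG co-chaperones and protein disulfide isomerases (PDIA) were used as well. HYOU1, SDF2L1, HERPUD1, CRELD2, CALR, CANX, DDIT3, ATF4 and TRIB3 were named singly. This gave 45 features of 31 genes, out of 16098 named features of 14884 genes and 53617 features in all. Pseudogenes and antisense genes (3 genes) were left out, and 30 of the 31 genes are protein-coding. The exception is HSPB2-C11orf52, a readthrough transcript annotated as a long noncoding RNA. HSPBAP1 also entered by its letters alone, since it encodes a protein that binds a heat shock protein.

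All RNA came from untreated BTSH cultures grown in serum-containing medium, 3 biological replicates with 1 HuGene 2.0 ST array each, and the cells had received no trastuzumab. Arrays of parental BT474 cells and of the resistant line BTRH are not part of the values used, so hypersensitive cells were not compared with any other group. Values are log2 signals after RMA, with medians over all features of 4.40, 4.42 and 4.43 in replicates 1, 2 and 3. A gene was taken as above background in an array if it passed the 95th percentile of 106 features of hair keratin-associated, late cornified envelope and vomeronasal receptor genes, which was 6.70, 7.08 and 6.83 in the 3 replicates. Of 6 luminal markers, 5 were above background in every array (KRT8 was not). Of the markers of other cell types, PECAM1 was above background in 0 arrays, whereas CD68 had signals of 7.70, 7.03 and 7.01 and was above it in 2, and the other 4 have no named feature here. Differences between replicates have no test, since each culture has a single array.

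Molecular chaperones bind unfolded protein chains and help them reach or keep their shape. In the cytosol, heat and other damage to proteins activate HSF1, which raises HSP70, HSP110 and small heat shock proteins. It acts through heat shock elements, runs of GAA units in alternating orientation. In the ER, unfolded proteins activate the sensors ATF6, IRE1 (gene ERN1) and PERK (gene EIF2AK3). ATF6 and XBP1 raise ER chaperones through the ER stress response elements ERSE and ERSE-II, and PERK signalling raises ATF4, which can induce DDIT3 (also called CHOP) and TRIB3.

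The named features cover this machinery only in part. Of 21 listed ER folding genes, 5 have a named feature here, of 14 cytosolic HSP70, HSP110 and HSP90 genes 11, of 8 small heat shock protein genes 3, of 7 mitochondrial chaperone genes 2 and of 6 BAG genes 5. No J-domain protein, CCT subunit, PDIA member or HSP90 gene has one, and neither do HERPUD1, HSPA5 and HSPA8. HYOU1, a chaperone of the ER lumen and the marker given for the set, was above background in every array.

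The elements that define the ER stress response are shown first, since all 5 ER folding genes measured here had one in the 250 bases before an annotated start. ERSE was searched as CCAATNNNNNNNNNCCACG and ERSE-II as ATTGGNCCACG, on both strands, in RefSeq promoters of build GRCh38.p14. The letters of ERSE were found for 0.0916% of all 27305 genes in the table and those of ERSE-II for 0.0659%, and 27 of the 31 genes of the set have a promoter there. Capitals mark the match, and 5 of the 6 matches lie in the reverse orientation, where ERSE begins with CGTGG and ends with ATTGG. HYOU1 holds ERSE-II at 2 places, 174 and 68 bases before its start (chr11:119057266-119057398, minus strand), and both are shown in 1 run. SDF2L1 holds it 177 bases before the start (chr22:21642105-21642133, plus strand). ERSE lies 61 bases before the start of CRELD2 (chr22:49918549-49918577), 206 bases before that of CALR (chr19:12938379-12938407), and 132 and 170 bases before a pair of the annotated starts of CANX (chr5:179698773-179698801), all on the plus strand.
HYOU1: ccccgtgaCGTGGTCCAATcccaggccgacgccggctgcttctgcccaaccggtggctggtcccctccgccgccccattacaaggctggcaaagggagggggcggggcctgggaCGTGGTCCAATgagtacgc
SDF2L1: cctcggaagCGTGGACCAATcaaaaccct
CRELD2: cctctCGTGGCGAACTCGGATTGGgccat
CALR: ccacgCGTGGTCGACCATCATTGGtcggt
CANX: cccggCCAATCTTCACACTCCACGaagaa

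Heat shock element matches are shown for HSPA1A, HSPA1B and HSPB1, picked with their signals known, and for both genes of the set with a 3-unit match. The first 3 were lowest in replicate 1, but a match and this pattern did not go together across the set. HYOU1, whose promoter was searched, was also lowest there and had no match. No match was found for HSPH1, ATF4 and TRIB3 either, which were lowest there too. However, 4 genes of the set have no promoter in the table, and for such genes no match could be found. HSPD1 and CANX, which have a match, were highest in replicate 1. The 2-unit form was searched as GAANNTTC, which reads the same on both strands, and the 3-unit form as GAANNTTCNNGAA on both strands. Every 3-unit match contains a 2-unit match. A 2-unit match was found for 9 of the 27 genes with a promoter, against 7.05% of all genes, and a 3-unit match for HSPA6 and HSPD1, against 0.557% of all genes. HSPA1A (chr6:31815426-31815455, plus strand) and HSPA1B (chr6:31827622-31827651, plus strand), neighbours that encode nearly the same inducible HSP70, hold the same 8 letters, and over the bases before their starts they were identical at 235 of 249 positions (94.4%). HSPA1L is transcribed away from HSPA1A, and its match is the same site read from the other strand. The matches of HSPB1 (chr7:76302480-76302509, plus strand) and HSPA6 (chr1:161524458-161524486, plus strand) lie 174 and 61 bases before the start, and HSPA6 has a further 2-unit match 172 bases before it. HSPD1 has a pair of overlapping 3-unit matches on opposite strands, before the second of its annotated starts, and capitals mark the one that lies 227 bases before that start (chr2:197500060-197500088, minus strand). HSPB8, BAG2 and a further start of CANX have 2-unit matches as well. A match is a string of letters, and whether a factor binds there was not measured.
HSPA1A: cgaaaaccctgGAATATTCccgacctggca
HSPA1B: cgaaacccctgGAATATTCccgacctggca
HSPB1: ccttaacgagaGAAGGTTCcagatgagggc
HSPA6: cggaaaggTTCGCGAAAGTTCgcggcggc
HSPD1: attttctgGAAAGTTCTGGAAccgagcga

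**Figure D1:**
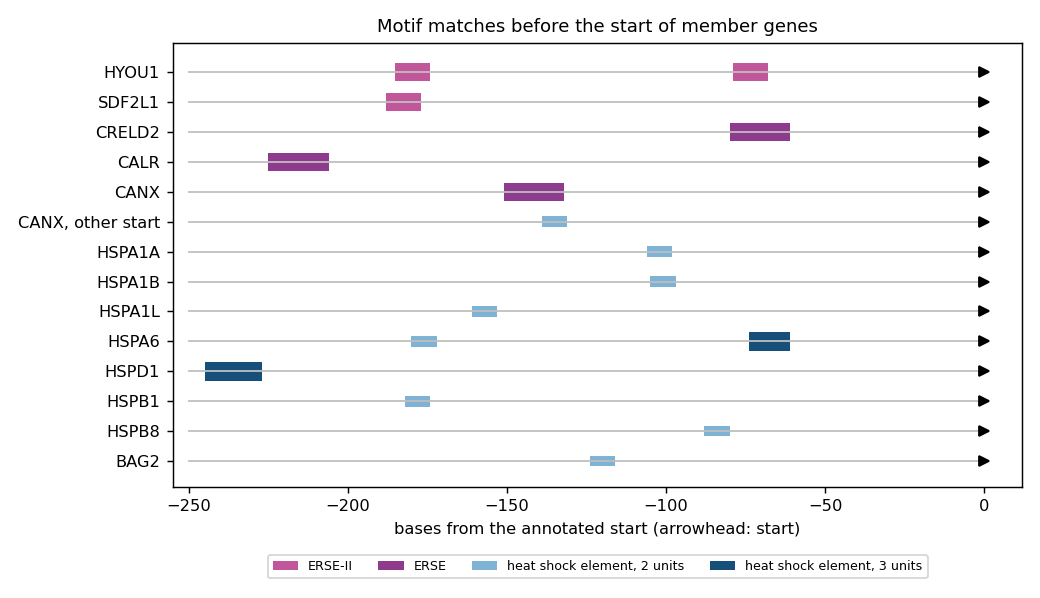
Positions of motif matches in the 250 bases before the annotated start (x axis, bases from the start; arrowhead, start) for the 13 genes with a match, 1 gene per line and a further line for another start of CANX. ERSE and ERSE-II matches stand before all 5 ER folding genes, at 61 to 206 bases from the start, and heat shock elements before HSP70 genes, HSPD1, HSPB1, HSPB8 and BAG2.

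All 3 BTSH arrays gave signals above background for 15 of the 31 genes, while 4 genes passed in some arrays and 12 in none. The count depended on the background, and at the 90th percentile of the same 106 features 25 of the 31 genes passed, beside 7523 of all 14884 named genes. The share of 48.4% stands beside 30.4% of all named genes. Among protein-coding genes it was 50.0% for the set (15 of 30) and 36.5% for all those named. Signals of different genes also depend on their probes, so genes were set against background and against their own values in the other arrays, and not against each other.

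**Figure D2:**
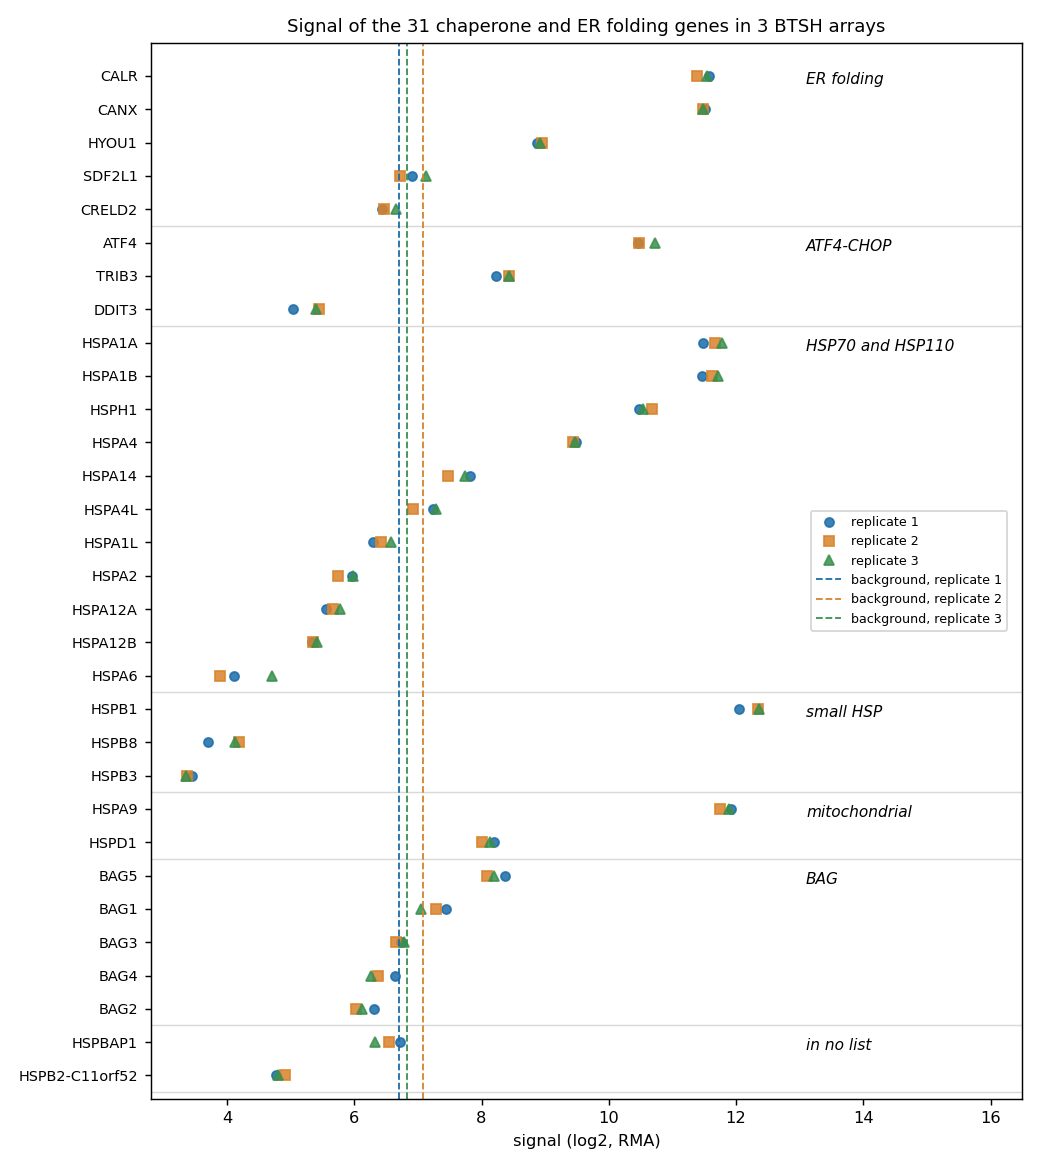
Signal (x axis, log2, RMA) of each of the 31 genes in replicates 1, 2 and 3 of BTSH cells, grouped by list, with dashed lines for the background of each array (6.70, 7.08 and 6.83). The points of 15 genes lie to the right of the line of their own array in every replicate and those of 12 to the left, and SDF2L1, HSPA4L, BAG3 and HSPBAP1 lie on both sides.

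Among the ER folding genes, CALR, CANX and HYOU1 were above background in every array, SDF2L1 in 2 and CRELD2 in none. CALR encodes calreticulin and CANX calnexin, lectin chaperones that hold newly made glycoproteins in the ER. CANX had signals of 11.52, 11.48 and 11.47 in replicates 1, 2 and 3 (11.49 ± 0.02, SD, n = 3), and CALR of 11.57, 11.38 and 11.55 (11.50 ± 0.10), the lowest value being that of replicate 2. Calnexin protein served as a loading control on western blots in the study. The highest and lowest CANX signals were 1.03-fold apart, and a smaller SD was found for 3.53% of the 4528 named genes above background. The closeness of the CANX signals depended on the scaling, since their range of 0.04 became 0.12 after quantile normalization and 0.08 with median centring. HYOU1, an ER relative of HSP110 that exchanges nucleotide on BiP, had signals of 8.87, 8.96 and 8.92 (8.92 ± 0.04). No replicate stood out for HYOU1, whose arrays were 1.06-fold apart, and a smaller SD was found for 10.95% of genes above background. A further feature annotated to HYOU1 was above background in 0 arrays, with 5.51, 5.33 and 5.82, so the statement on HYOU1 rests on 1 of its 2 features, and the range of 0.08 became 0.23 when the features were averaged.

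SDF2L1 and CRELD2 are small luminal ER proteins known as targets of the unfolded protein response. SDF2L1 had signals of 6.91, 6.72 and 7.13 (6.92 ± 0.20) and failed background in replicate 2 alone, where background was highest (7.08). CRELD2 had 6.43, 6.47 and 6.66 (6.52 ± 0.13) and differed from the background of its arrays by -0.27, -0.61 and -0.17. Both were highest in replicate 3. A signal below background does not show that a transcript is absent.

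The genes downstream of PERK were split. ATF4, the transcription factor whose translation rises when PERK or related kinases are active, had signals of 10.47, 10.47 and 10.73 (10.56 ± 0.15). TRIB3, a pseudokinase induced by ATF4 and CHOP, had 8.22, 8.44 and 8.43 (8.36 ± 0.12). ATF4 was highest in replicate 3 and TRIB3 in replicate 2. Both were lowest in replicate 1, where ATF4 lay only slightly below its value in replicate 2. DDIT3, which encodes the stress factor CHOP, had 5.04, 5.44 and 5.40 (5.30 ± 0.22) and differed from the background of its arrays by -1.66, -1.63 and -1.43. ATF4 is controlled largely at translation, which arrays do not measure.

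The inducible HSP70 genes were above background in every array and differed between the cultures by up to 1.23-fold. HSPA1A had signals of 11.48, 11.66 and 11.78 in replicates 1, 2 and 3 (11.64 ± 0.15, n = 3), and HSPA1B of 11.47, 11.63 and 11.72 (11.60 ± 0.13). Both were lowest in replicate 1 and highest in replicate 3. HSPB1, the small heat shock protein HSP27, had 12.04, 12.35 and 12.35 (12.25 ± 0.18) and was lowest in replicate 1 as well, by 1.24-fold. HSPH1, the cytosolic HSP110, had 10.47, 10.67 and 10.53 (10.56 ± 0.10), with its highest value in replicate 2. Of the list of heat shock inducible genes, 5 of 8 named members were above background, beside 30.4% of all named genes and 36.5% of protein-coding ones. Of these 5, 4 were lowest in replicate 1, against 26.8% of all named genes above background. HSPA1A and HSPA1B count as 2 genes in both counts, and their array signals cannot be told apart, since their sequences are nearly the same. The mean of the 5 genes spanned 0.17 between arrays (-0.10, 0.03 and 0.07 from each gene's own mean), beside 0.07 for all named genes above background (0.03, 0.00 and -0.03). HSPD1, the remaining gene of the 5, was highest in replicate 1.

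Each of HSPA1A, HSPA1B and HSPA1L is represented by 5 features. HSPA1A features ranged over 11.05 to 11.48 in replicate 1, 11.23 to 11.66 in replicate 2 and 11.36 to 11.78 in replicate 3. All 5 features of HSPA1A, all 5 of HSPA1B and all 5 of HSPA1L were lowest in replicate 1 and highest in replicate 3. These are not 15 independent observations. The values of 3 HSPA1A features are identical in every array, as are those of 3 HSPA1L features, which leaves 3 distinct features for HSPA1A and 3 for HSPA1L. HSPA1L, known mainly from testis, had 6.30, 6.43 and 6.57 with its brightest feature and was above background in 0 arrays.

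**Figure D3:**
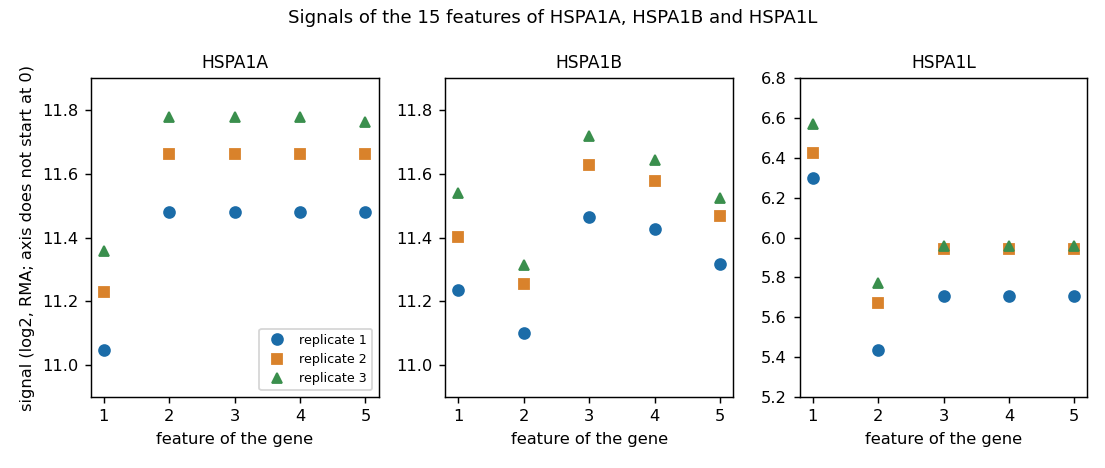
Signal (y axis, log2, RMA) of the 5 features of HSPA1A, HSPA1B and HSPA1L in each of the 3 BTSH replicates; the y axes do not start at 0, and that of HSPA1L covers a lower range. In every feature replicate 1 is lowest and replicate 3 highest, and 3 features of HSPA1A and 3 of HSPA1L coincide.

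HSPA6, an HSP70 that is nearly silent in human cells until they are stressed, was not above background. Its signals were 4.11, 3.88 and 4.70 (4.23 ± 0.42), which differed from background by -2.59, -3.19 and -2.13. HSPA6 was the single gene of the set whose arrays were over 1.5-fold apart (1.76-fold), and at such signals this difference cannot be read as a change of the transcript. Thus the genes with a heat shock element match include HSPA1A and HSPB1, above background in every array, and HSPA6 and HSPB8, above it in none.

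Among the other cytosolic HSP70 and HSP110 genes, HSPA4 varied little between arrays. HSPA4, a constitutive HSP110 family member, had signals of 9.49, 9.43 and 9.47 (9.47 ± 0.03), with arrays 1.04-fold apart. HSPA14, an HSP70 bound to ribosomes, had 7.81, 7.48 and 7.74 (7.68 ± 0.18), with the lowest value in replicate 2. HSPA4L had 7.23, 6.92 and 7.28 (7.15 ± 0.20) and fell short of background in replicate 2 alone, where background was highest (7.08). HSPA2, the HSP70 of male germ cells, and HSPA12A and HSPA12B, distant members of the family, were above background in 0 arrays, with means of 5.90, 5.67 and 5.37. Of the small heat shock proteins, HSPB8, a partner of BAG3 in selective autophagy (4.01 ± 0.26), and HSPB3, known from muscle (3.39 ± 0.05), were above background in 0 arrays, as was the readthrough HSPB2-C11orf52 (4.83 ± 0.07). HSPBAP1, which encodes a protein that binds HSP27, had 6.73, 6.54 and 6.33. It passed background in replicate 1 alone, where background was lowest (6.70).

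Both mitochondrial chaperones with a named feature were above background in every array, beside 30.4% of all named genes. HSPA9, the mitochondrial HSP70 mortalin, had signals of 11.92, 11.75 and 11.89 (11.85 ± 0.09). HSPD1, the HSP60 of the mitochondrial matrix, had 8.20, 8.01 and 8.14 (8.12 ± 0.10). The order of the arrays was the same for both, with replicate 1 highest and replicate 2 lowest, at differences of 1.12-fold and 1.14-fold.

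BAG proteins release substrates from HSP70 by nucleotide exchange. BAG1, which also binds BCL2, had signals of 7.44, 7.28 and 7.05 (7.26 ± 0.19) and was above background by 0.74, 0.21 and 0.22. It had the largest difference between arrays among the 15 genes above background, at 1.31-fold, with replicate 1 highest and replicate 3 lowest. BAG5 had 8.37, 8.08 and 8.20 (8.22 ± 0.14) and was also highest in replicate 1. BAG3, an HSF1 target, had 6.74, 6.66 and 6.78 (6.73 ± 0.06). It passed background by 0.04 in replicate 1, where background was lowest (6.70), though its signal was highest in replicate 3. BAG2 (6.15 ± 0.14) and BAG4 (6.43 ± 0.19) passed it in 0 arrays.

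Across the set, the cultures differed about as much as they did for all named genes above background. Among the 15 genes above background, 0 reached a 1.5-fold difference between replicates, beside 2.25% of all named genes above background. With 15 genes, a count of 0 lies near that share. The ranges of the 15 genes ran from 0.04 for CANX to 0.39 for BAG1 on the log2 scale. CANX did not have the narrowest range under either other scaling, with 0.12 against 0.04 for HSPA4 after quantile normalization and 0.08 against 0.06 for HYOU1 with median centring. The median SD was 0.12 for the 15 genes and 0.11 for all named genes above background. An SD of 0.05 or lower was found for 3 of the 15 genes (20.0%), namely CANX, HSPA4 and HYOU1, and for 15.1% of all such genes, with the signals as deposited. The highest signal came from replicate 1 for 8 of the 15 genes, from replicate 2 for 3 and from replicate 3 for 4, and the shares of all named genes above background were 48.1%, 24.4% and 27.4%. The lowest signal came from replicate 1 for 7 genes (46.7%), from replicate 2 for 6 (40.0%) and from replicate 3 for 2 (13.3%), namely CANX and BAG1. The shares of all named genes above background were 26.8%, 25.9% and 47.3%. The counts of highest arrays lay near those of all genes at this background, but not at its 90th percentile, where 11 of the 25 genes passing (44.0%) were highest in replicate 3 and 3 of the 25 in replicate 2, beside 30.5% and 25.1% of all named genes passing. Replicate 3 was lowest for a smaller share of the 15 genes than of all genes. The 15 genes include HSPA1A and HSPA1B, which are not independent, and the difference was not tested.

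**Figure D4:**
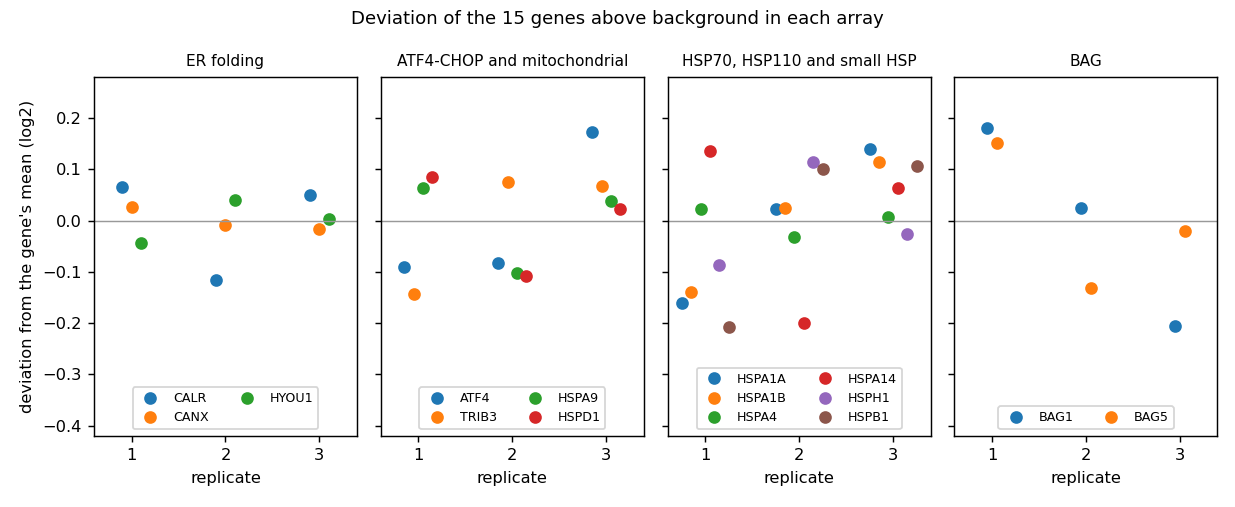
Deviation of each of the 15 genes above background from its own mean over the 3 arrays (y axis, log2) in replicates 1, 2 and 3 of BTSH cells (x axis; points are offset sideways within a replicate). HSPA1A, HSPA1B and HSPB1 are lowest in replicate 1, both BAG genes are highest there, and CANX and HYOU1 stay within 0.05 of their means.

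**Figure D5:**
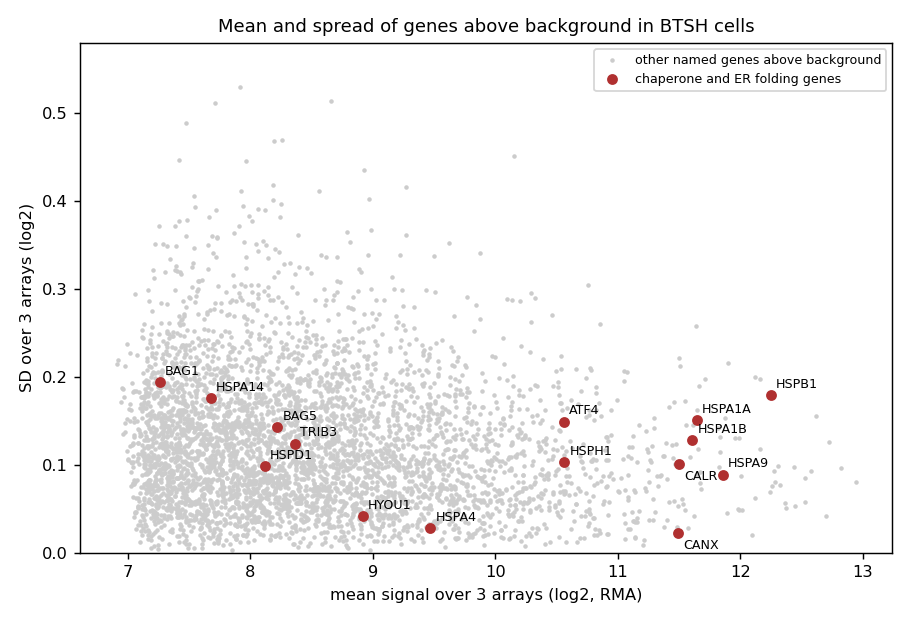
Mean signal (x axis, log2, RMA) and SD over 3 arrays (y axis, log2) of genes above background in BTSH cells, with the 15 chaperone and ER folding genes in red and other named genes in grey. With the signals as deposited, CANX, HSPA4 and HYOU1 lie at the lower edge with SDs of 0.02 to 0.04, and BAG1 has the largest SD of the 15, 0.19.

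The regulators and partners of these genes were described from lists, whose counts above background stand beside 30.4% of all named genes and 36.5% of the protein-coding ones. Of the 5 named UPR sensors and factors, 4 were above background in every array, namely XBP1 (11.14 ± 0.03), ATF6 (9.63 ± 0.04), ATF6B (9.27 ± 0.06) and EIF2AK3 (7.97 ± 0.14). ERN1 had 6.11, 5.84 and 6.00 and passed background in 0 arrays, and an array feature of this kind does not tell spliced from unspliced XBP1. Of 9 named genes of ER-associated degradation, which returns misfolded proteins to the proteasome, 8 were above background, and DERL3 was above it in none. Those with the widest ranges were DERL1 (9.74 ± 0.12), of the channel through which proteins leave the ER, UFD1 (7.83 ± 0.09) and NPLOC4 (10.40 ± 0.08), which act with the ATPase VCP, and the lectin ERLEC1 (8.91 ± 0.07). The means of both lists differed little between arrays, by 0.05 and 0.04.

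Of 14 other ER folding genes with a named feature, 11 were above background. ERO1A, the oxidase that recharges disulfide isomerases, had the largest difference, with 7.91, 7.48 and 7.32 (7.57 ± 0.31). ERP29 (8.17 ± 0.13), the calcium-binding CALU (10.36 ± 0.12) and PRKCSH (10.92 ± 0.11), a subunit of glucosidase II, followed. Replicate 1 was highest for ERO1A and also for 7 of 7 hypoxia genes above background (48.1% of all genes were highest there), whose mean deviations were 0.34, -0.01 and -0.33, and ERO1A is known to be induced by hypoxia. Of 9 named ATF4 targets, 6 were above background and did not move together. DDIT4, which hypoxia also induces, had 9.54, 9.24 and 8.94, and PSAT1, of serine synthesis, 10.95, 10.72 and 10.55, both highest in replicate 1. SESN2, a stress-induced inhibitor of mTORC1 signalling, had 7.52, 7.51 and 7.90 and was highest in replicate 3, where ATF4 was highest too. ATF5, a relative of ATF4, had 8.42, 8.67 and 8.61. Whether ATF4 or hypoxia had a part in these differences was not tested.

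HSF1, the factor behind the heat shock response and named for that role, was above background with 8.03, 8.08 and 8.06 (8.06 ± 0.03). Of the 8 named genes of HSF factors and co-chaperones, 5 were above background in all arrays and 3 of these 5 were highest in replicate 3, beside 27.4% of all named genes above background. CDC37, which brings kinases to HSP90, had 9.52, 9.52 and 9.80 (9.61 ± 0.16), and STIP1, which links HSP70 to HSP90, had 9.21, 9.25 and 9.45 (9.30 ± 0.13). PTGES3, the HSP90 co-chaperone p23 (10.57 ± 0.09), and HSBP1, which binds HSF1 (9.63 ± 0.06), varied less. HSPA1A and HSPA1B, which are not independent, and ATF4 were also highest in replicate 3. HSPB1 was nearly equal in replicates 2 and 3 (12.3484 and 12.3545). HSPH1 was highest in replicate 2 and HSPD1 in replicate 1. Of the 15 genes of the set above background, 4 (26.7%) were highest in replicate 3, near the share of all named genes, and 3 with median centring. The mean of immediate early genes was highest in replicate 2 (deviations of -0.09, 0.26 and -0.17). Whether any of these patterns share a cause was not tested.

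The element letters of the ER genes were found before other genes too. Either ERSE or ERSE-II stood before 43 genes of the promoter table, of which 26 have a named feature here. Of these 26, 14 (53.8%) were above background in all arrays, beside 30.4% of all named genes and 36.5% of protein-coding ones, and 10 in none. The 21 genes outside the set include XBP1 itself, SERP1 (7.45 ± 0.16), which stabilises membrane proteins in the ER, and NUCB1 (7.50 ± 0.10), as well as RUVBL2 (9.30 ± 0.19) and ZNF143 (7.76 ± 0.11). ERO1B (5.77 ± 0.25) and FICD (5.76 ± 0.11), which acts on BiP, also have a match and were above background in 0 arrays. These 6 genes outside the set and XBP1 were picked after their values were seen. The median SD of the 14 genes was 0.10, beside 0.11 for all named genes above background. A match thus stood before genes on both sides of background.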

How the data were processed

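Total RNA of 3 untreated BTSH cultures had been hybridised to HuGene 2.0 ST arrays. The authors normalised them with Expression Console 1.4, and by the submitters' processing notes the deposited log2 signals come from RMA. Transcriptome Analysis Console 4.0 is named for differential expression. The genome build of the array features: not given in the sources used here.

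Features were named by the platform annotation and symbols updated by gene identifier through RefSeq GRCh38.p14. The brightest feature stood for a gene. Background was the 95th percentile, in each array, of 106 features of genes of other tissues. Means, SDs, ranges and counts were computed, with no test, because there is 1 group. The text names the genes that the rule lists singly, the other ER folding genes, the widest and narrowest ranges and the genes below background in each member list, and up to 4 genes with the widest ranges of each pathway list, other names being chosen after their values were seen. The members and lists were chosen with earlier results of these data known. Motifs were searched in 250 bases before 39 annotated starts, and the 50 bases after them were not used. Alternatives were other background percentiles, averaging of features, quantile normalization, median centring, no filter and leaving out each replicate. The number of arrays, 3, limits the precision. Python 3.11.15, numpy 2.4.6, pandas 2.3.3 and matplotlib 3.10.9 were used.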

Additional observations from a re-analysis of the deposited data

How the results depend on the processing

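The level of background set how many genes passed. At its 90th percentile 25 of the 31 genes were above it in all arrays, 11 of them highest in replicate 3 (44.0%, beside 30.5% of the 7523 named genes passing), and at the 99th percentile 14 were. Without a filter, 1 gene, HSPA6, was at least 1.5-fold apart. The range of a list's mean between arrays moved by more than its SD in the following settings. For ER folding it was 0.145 at the 90th percentile and without a filter, through SDF2L1 and CRELD2, and 0.13 with the mean of a gene's features, through HYOU1. Without a filter it was 0.19 for cytosolic HSP70, 0.0080 for ER-associated degradation, 0.14 for other ER folding and 0.17 for ATF4 targets. At the 90th percentile it was 0.19 for ATF4 targets and 0.72 for immediate early genes. With median centring it was 0.0875 for UPR sensors and 0.0673 for ER-associated degradation, and with the median over the list 0.0568 for ER-associated degradation and 0.0313 for other ER folding.

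Leaving out 1 replicate gave 15 to 17 genes above background, 0 at least 1.5-fold apart and a median SD of 0.05 to 0.13. For the genes above background in all 3 arrays the 0 was fixed in advance, since leaving out an array cannot widen a feature's range. The ranges of list means were then 0.0402 to 0.0507 for ER folding, 0.11 to 0.24 for ATF4-CHOP, 0.0315 to 0.0957 for cytosolic HSP70, 0.0406 to 0.1522 for heat shock inducible genes, 0.0433 to 0.1789 for mitochondrial chaperones, 0.0593 to 0.2788 for BAG, 0.0055 to 0.0536 for UPR sensors, 0.0020 to 0.0354 for ER-associated degradation, 0.0200 to 0.0689 for other ER folding, 0.0076 to 0.0811 for ATF4 targets, 0.0301 to 0.1398 for HSF and co-chaperones, 0.32 to 0.66 for hypoxia and 0.10 to 0.52 for immediate early genes. Genes above background were called anew from the arrays left, so the genes of a list could change. The range rose for ER folding without replicate 2 (0.0507, against 0.0444 over all arrays). It also rose for immediate early genes without replicate 3 (0.5187, against 0.4246). Counting HSPA1A and HSPA1B as 1 gene, chosen after seeing the data, left 14 genes above background. Over all these settings, 151 values of the counts and list ranges and 152 of single genes stayed within the spread (counts, within 1.5 times), and 28 and 34 moved further. Some of these outcomes were fixed in advance, so the counts are no measure of robustness. Averaging of features cannot change a gene with 1 feature. For a single gene, leaving out the array with the middle value keeps the range, and leaving out the highest or lowest narrows it. Other than by leaving out a replicate, the single-gene values that moved were the ranges of CANX, 0.1156 after quantile normalization and 0.0759 with median centring, and of HYOU1, 0.2267 with the mean of its features. Where no gene is named above, the cause was not tested. No paired analysis was possible because there is 1 group only.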
